A study of Rattus norvegicus with 20 samples.

Results

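Genes of the heat shock protein families, of their J-domain partners and of the TRiC chaperonin were followed in rat brain. Members were the genes whose symbol starts with Hsp, Dnaj, or Cct followed by a digit, without the endoplasmic reticulum chaperones Hspa5 and Hsp90b1 and without the Hspg proteoglycan genes. A probe set is a group of short probes that reads 1 transcript, and probe sets annotated to 1 gene were used. This gave 69 genes, read by 106 probe sets, of 14217 genes read by 20826 such probe sets. Each gene was represented by its brightest probe set over the 20 arrays. Their mean signal placed 60 genes above the filter on low signal, which was the 40th percentile of all probe sets, and 9 below it, namely Dnajb3, Dnajb7, Dnajb13, Dnajc22, Hspa1l, Hspa12b, Hspb2, Hspb3 and Hspb9. Probe sets that also name another gene were left out, so the constitutive Hsp70 gene Hspa8, its inducible relative Hspa1b and the inducible Hsp90 gene Hsp90aa1 have no value here. The members are not all cytosolic. Hspd1, Hspe1, Hspa9, Dnaja3 and Dnajc15 are among those that encode mitochondrial proteins. Dnajb9, Dnajb11, Dnajb14, Dnajc3, Dnajc10 and Hspa13 are among those that encode proteins of the endoplasmic reticulum. These lists are not complete.

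Heat shock proteins bind unfolded or partly folded proteins and help them to fold, to be moved or to be degraded. Hsp70 proteins do this in cycles of ATP hydrolysis, J-domain proteins bring them substrates and start the hydrolysis, and nucleotide exchange factors such as Hsp110 end the cycle. The TRiC complex, made of the Cct subunits and Tcp1, encloses actin, tubulin and other proteins while they fold. Under stress that unfolds proteins, the transcription factor HSF1 binds repeats of nGAAn in promoters and raises the transcription of inducible members such as Hspa1a, Hsph1, Dnajb1 and Hspb1. In neurons some J-domain proteins serve membrane traffic, such as auxilin, encoded by Dnajc6, which helps to strip clathrin from vesicles.

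The samples were 20 male Sprague Dawley rats, 20 weeks old, 1 array per rat, with tissue labelled brain cortex. In the control group 10 rats breathed pure oxygen for 15 minutes, and in the other group 10 rats breathed 2% isoflurane, a volatile anaesthetic, in oxygen for the same 15 minutes at 1.4 MAC, the unit of anaesthetic potency. Both groups recovered for 6 hours before the brain was taken. The submitters' design text names network analysis of the profiles as the purpose.

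Arrays of both groups fell into 2 sets by Pcp2, a gene of cerebellar Purkinje cells. On 11 arrays, called Pcp2-high, its log2 signal ran from 13.60 to 14.17, and on 9, called Pcp2-low, from 4.46 to 10.67, parted at 12. The Pcp2-high set held 6 oxygen rats (replicates 5 to 10) and 5 isoflurane rats (1, 3, 7, 8 and 9), and the Pcp2-low set 4 oxygen rats (replicates 1 to 4) and 5 isoflurane rats (2, 4, 5, 6 and 10). The summed linear signal of 8 cerebellar neuron genes was 57786 to 82512 in the first set and 6493 to 13188 in the second. That of 6 cortical projection neuron genes was 1127 to 1836 and 2772 to 4546, and that of 5 striatal genes 2720 to 4443 and 5461 to 11772. The label cortex is thus not met by the Pcp2-high arrays, and the Pcp2-low arrays carry striatal as well as cortical markers. Within the Pcp2-low set, isoflurane replicates 2, 4, 5 and 6 formed a subset of their own. In these 4 arrays Pcp2 was 4.46 to 5.93. The ratio of the 3' to the 5' beta-actin control signal, which rises as RNA is shortened, was 4.93 to 7.26, against 2.13 to 3.94 on the other 16. The Gapdh control did not set the 4 apart, with a log2 3'/5' ratio of 0.24 to 0.33, against 0.12 to 0.48. Isoflurane results are therefore also given without these 4 arrays. On isoflurane replicate 10 Pcp2 was 10.67, above the 7.63 to 8.78 of the Pcp2-low oxygen arrays. The cerebellar gene Gabra6 was 10.70 there, against 7.00 to 8.85. The part of tissue make-up in contrasts with replicate 10 was not tested. In bulk tissue, fewer cells of a type and less RNA per cell cannot be told apart.

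Promoter sequences are shown because several members are known targets of HSF1, and because the letters of its binding repeats can be read directly. RefSeq promoter windows of the rat assembly GRCr8, 250 bases before to 50 after the start, were at hand for 58 of the 69 members. The triplet of repeats, GAANNTTCNNGAA or TTCNNGAANNTTC on either strand, was found in 5 of the 58 windows (8.62%) and in 0.798% of 33469 windows of all genes. The pair of repeats inside it, GAANNTTC or TTCNNGAA, was found in 17 of 58 (29.3%) and in 15.9% of all windows. Of the inducible members named above, Hsph1 had a triplet, Dnajb1 and Hspb1 had pairs only, and Hspa1a had neither in its window. A match describes letters and does not show binding. Triplets are in capitals below, 5' to 3' on the gene's strand. Hspe1 and Hspd1 lie head to head and share 1 promoter, with 211 bases common to both windows, and their triplets are the same bases read from either strand. Of Dnaja1 and Cct4, whose triplet lies after the start, 30 bases are shown.
Hspe1, chr9:64084077-64084326, plus strand, 250 bases before the start: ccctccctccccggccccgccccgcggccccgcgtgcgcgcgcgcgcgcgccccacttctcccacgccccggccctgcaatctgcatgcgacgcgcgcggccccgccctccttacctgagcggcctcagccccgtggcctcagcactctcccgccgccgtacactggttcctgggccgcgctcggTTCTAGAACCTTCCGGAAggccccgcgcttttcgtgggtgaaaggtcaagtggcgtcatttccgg
Hsph1, chr12:10427118-10427367, plus strand, 250 bases before the start: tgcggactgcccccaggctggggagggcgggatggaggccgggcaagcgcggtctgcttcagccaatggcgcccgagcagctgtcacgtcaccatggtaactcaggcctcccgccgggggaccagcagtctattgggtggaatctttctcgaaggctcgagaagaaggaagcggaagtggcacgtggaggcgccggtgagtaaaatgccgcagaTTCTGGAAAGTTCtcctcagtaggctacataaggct
Dnaja1, chr5:60638405-60638434, plus strand: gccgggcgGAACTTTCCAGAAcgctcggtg
Cct4, chr14:101193074-101193103, plus strand: gcgtcgctTTCTGGAAGGTTCgtggaggcg

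Levels by array set are described first, without a test, since a measured gene defines the sets. In oxygen rats 9 of the 60 members were higher on every Pcp2-high array than on every Pcp2-low array, and 9 were lower. Over all 18625 probe sets tested, the ranges were apart in this way in 18.2% higher and 14.7% lower, so the members' shares of 15% and 15% are close to the background. In isoflurane rats 17 members were higher and 6 lower, against 19.8% and 16.2% of all probe sets. Across all 20 arrays the ranges were apart for 6 members higher in Pcp2-high arrays (Dnajc12, Hspb6, Hspa14, Dnajc9, Cct2 and Cct8) and 4 lower (Hspa12a, Hspb8, Hsph1 and Dnajc6), against 9.47% and 9.34% of all probe sets.

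Among the 60 members past the filter, the largest difference was that of Dnajc12, a J-domain protein that assists the aromatic amino acid hydroxylases. Its log2 signal on the 6 Pcp2-high oxygen arrays had a lowest value of 11.32, a median of 11.56 and a highest of 11.59, and the 4 Pcp2-low oxygen arrays read 9.57, 9.69, 9.75 and 9.75. In isoflurane rats the Pcp2-high arrays read 11.44, 11.55, 11.66, 11.70 and 11.83, and the Pcp2-low arrays 9.45, 9.49, 9.56, 9.68 and 10.17. Every Pcp2-high array was thus above every Pcp2-low array, by a mean of 3.53-fold in oxygen rats and 3.91-fold in isoflurane rats. Hspb6, a small heat shock protein of muscle and brain, ran from 10.99 to 11.31 on the 11 Pcp2-high arrays and from 9.26 to 10.42 on the 9 others. Its mean difference was 1.08 in oxygen rats and 1.56 in isoflurane rats on the log2 scale. Hspa14, an Hsp70 of the ribosome-associated complex, ran from 9.73 to 10.10 against 8.97 to 9.62.

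In the other direction, Hspa12a, a distant member of the Hsp70 family, read 11.60, 11.64, 11.86 and 11.88 on the Pcp2-low oxygen arrays. The Pcp2-high oxygen arrays had a lowest value of 10.41, a median of 10.74 and a highest of 10.91, a mean difference of -1.04. Isoflurane rats showed the same order, with 10.40 to 10.95 on Pcp2-high and 11.43 to 11.75 on Pcp2-low arrays. Hsph1, the Hsp110 that acts as exchange factor for Hsp70 and whose promoter is printed above, ran from 11.05 to 11.34 on Pcp2-high arrays and from 11.57 to 12.25 on Pcp2-low arrays. Dnajc6, the auxilin of neurons, ran from 12.16 to 12.56 and from 12.61 to 13.11. Hspb8, a small heat shock protein that acts with the co-chaperone Bag3, was lower in the Pcp2-high set by 1.10 in oxygen rats and by 0.59 in isoflurane rats, with ranges of 7.41 to 8.25 and 8.40 to 9.12.

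**Figure D1:**
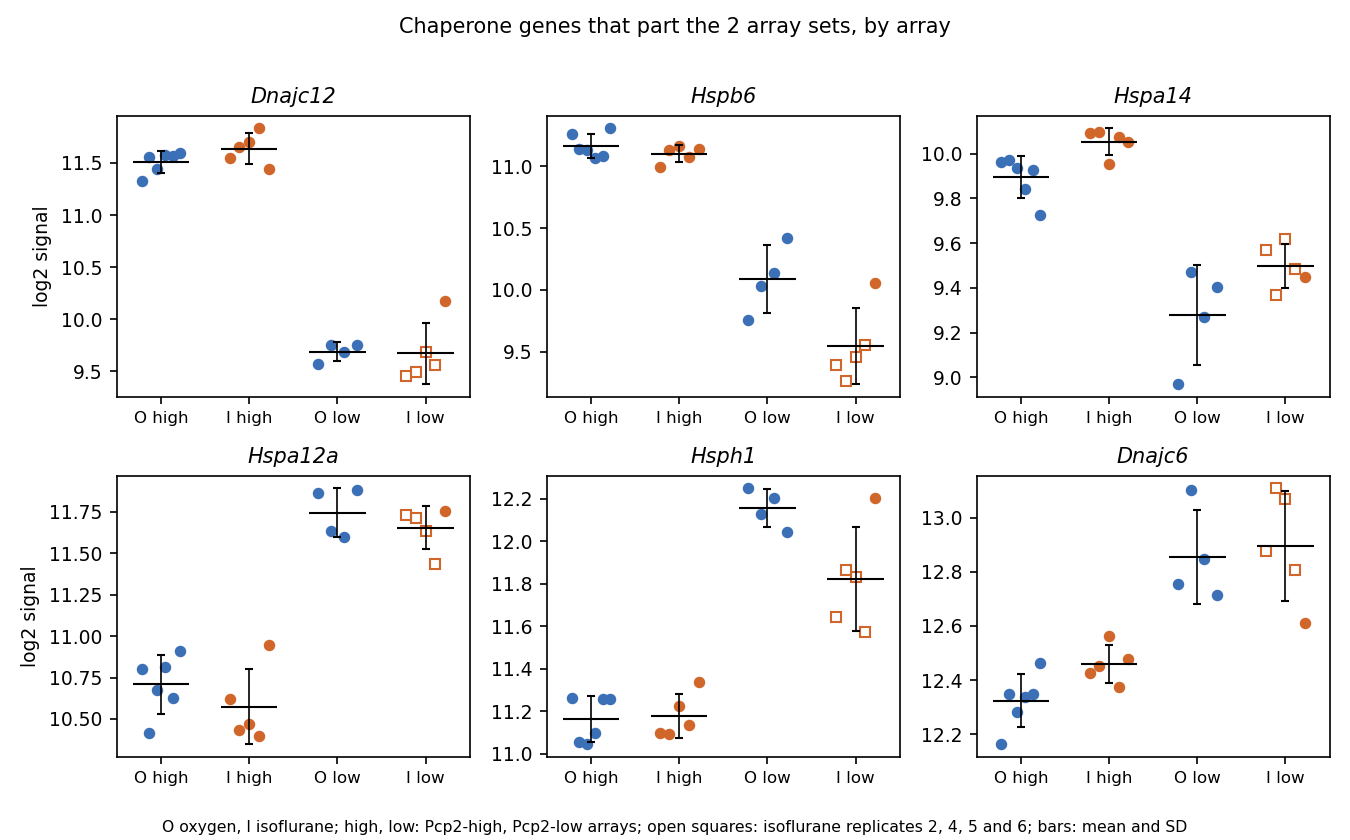
Log2 signal (vertical axis) of 6 chaperone genes on each of the 20 arrays, by group and array set, with mean and SD. Dnajc12, Hspb6 and Hspa14 were higher on every Pcp2-high array, and Hspa12a, Hsph1 and Dnajc6 were higher on every Pcp2-low array.

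Other members with large differences between sets in oxygen rats included some whose ranges overlapped. Dnajb5, of class B, differed by -0.79, Hspa2, a testis-rich Hsp70, by -0.68 and Dnajc17, which acts in splicing, by 0.42, each with overlapping ranges. Dnajc15, of the inner mitochondrial membrane, differed by -0.61 and its Pcp2-low oxygen arrays, from 10.38 to 10.93, lay just above the Pcp2-high ones, from 10.02 to 10.36. In isoflurane rats the 2 sets overlapped for Dnajc15. Dnajc21, a factor of ribosome maturation, differed by 0.50 and Dnajc9, a histone chaperone, by 0.42, both with oxygen ranges apart. Among the 9 members below the filter, Dnajb13, a J-domain protein of the axoneme of cilia and sperm, ran from 3.34 to 6.57 on Pcp2-high arrays and from 7.18 to 8.18 on Pcp2-low arrays, a mean difference of -2.56 in oxygen rats, larger in size than that of Dnajc12.

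The classic heat-inducible genes came next, 6 hours after isoflurane. Hspa1a, the inducible Hsp70, had a lowest log2 signal of 7.35, a median of 7.82 and a highest of 8.46 in the 10 oxygen rats, and 6.30, 7.57 and 8.22 in the 10 isoflurane rats. The groups overlapped. Blocked on array set, the difference (isoflurane minus oxygen) was -0.28 ± 0.17 (SE, 95% interval -0.64 to 0.07, limma adjusted p = 0.288). In Pcp2-low arrays the oxygen rats read 7.35, 7.41, 7.80 and 8.07 and the isoflurane rats 6.30, 6.78, 7.12, 7.38 and 7.48. In Pcp2-high arrays the difference was 0.01, with an interval from -0.36 to 0.38. The blocked difference was -0.03 when isoflurane replicates 2, 4, 5 and 6 were left out.

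None of the other inducible genes measured passed the limma test in this blocked fit. Hsph1 differed by -0.14 (interval -0.30 to 0.02), and Dnajb1, the main J-domain partner of inducible Hsp70, by -0.13 (-0.30 to 0.04). Hspb1, the small heat shock protein Hsp27, differed by 0.01, and its interval from -0.35 to 0.37 is wide. The mitochondrial chaperonin pair Hspd1 and Hspe1 each differed by 0.01, with intervals from -0.11 to 0.13 and from -0.17 to 0.19. Hsp90ab1, the constitutive cytosolic Hsp90, had a lowest value of 12.76, a median of 13.18 and a highest of 13.47 in oxygen rats. In isoflurane rats these were 12.90, 13.07 and 13.30, a difference of -0.05 (-0.21 to 0.10). A second probe set of Hsp90ab1, with a mean log2 signal of 12.71, differed by 0.42 (limma adjusted p = 0.118). The signs of Hspb1, Hspd1 and Hspe1 turn when arrays are centred on their medians, and those of Hsph1, Hsp90ab1 and Hspb1 turn when the 4 arrays are left out. Without them Dnajb1 differed by -0.02, Hspd1 by 0.11 and Hspe1 by 0.11.

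Over the whole family 1 of 60 members passed in the blocked fit (adjusted p under 0.05), or 1.67%, against 7.37% of the 18625 probe sets tested. At an unadjusted p under 0.05 there were 13 members, or 21.7%, against 27.1%. The members' median difference was 0.02 on the log2 scale, and that of all probe sets 0.00. By role, 5 of 7 TRiC genes, 4 of 8 Hsp70 and Hsp110 genes, 3 of 4 class A, 3 of 9 class B and 15 of 22 class C J-domain genes had a positive difference. Without the 4 isoflurane arrays, limma called 0 members and 0 of all probe sets, with 15 members and 16.2% of all probe sets at an unadjusted p under 0.05.

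The member that rose, as 2.58% of all probe sets did, was Dnajc13, a J-domain protein of endosomes that acts in receptor sorting. Oxygen rats had a lowest log2 signal of 8.88, a median of 9.12 and a highest of 9.36, and isoflurane rats 9.29, 9.42 and 9.78. On Pcp2-low arrays the groups were apart, with 8.88, 8.89, 9.10 and 9.12 in oxygen rats and 9.39, 9.41, 9.51, 9.65 and 9.78 in isoflurane rats, while on Pcp2-high arrays they overlapped. In 10 of 10 isoflurane rats the signal exceeded the mean of the oxygen rats in the same set. The difference was 0.34 ± 0.08 (SE, limma adjusted p = 0.0194). Without the 4 arrays that stood apart it was 0.22 (adjusted p = 0.226), and with no term for the array set its adjusted p was 0.0739. The highest beta-actin 3'/5' ratios are in those 4 arrays. Their part in this result was not tested beyond this and a fit with a 3'/5' covariate. That covariate was the mean of the log2 beta-actin and Gapdh ratios, and in the fit Dnajc13 differed by 0.32 and passed.

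The 9 members next in order of p missed the threshold. Hspa9, the mitochondrial Hsp70 that pulls proteins across the inner membrane, was 10.21 at the lowest, 10.69 at the median and 11.03 at the highest in oxygen rats, and 10.59, 10.90 and 11.21 in isoflurane rats. Its blocked difference was 0.25 ± 0.08 (limma adjusted p = 0.0563), with 10 of 10 isoflurane arrays above their set's oxygen mean and 0.27 without the 4 arrays. Dnajb5 had a difference of -0.43 ± 0.14 (adjusted p = 0.0569), with 9 of 10 isoflurane arrays below. Dnajc21 differed by 0.30 (limma adjusted p = 0.0713), Dnajc27, which has a GTPase domain, by -0.22 (0.0715), Dnajc3 by 0.45 (0.0727) and Hspa14 by 0.19 (0.0728). Cct7, a TRiC subunit, differed by 0.15 (limma adjusted p = 0.0844), Hspb6 by -0.28 (0.0912) and Hspbp1, an exchange factor of Hsp70, by -0.21 (0.0915). Without the 4 arrays the differences were -0.40 for Dnajb5, 0.20 for Dnajc21, -0.16 for Dnajc27, 0.17 for Dnajc3, 0.16 for Hspa14, 0.17 for Cct7, -0.06 for Hspb6 and -0.12 for Hspbp1. In class A the lowest p was that of Dnaja4, which differed by -0.07 (0.66).

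**Figure D2:**
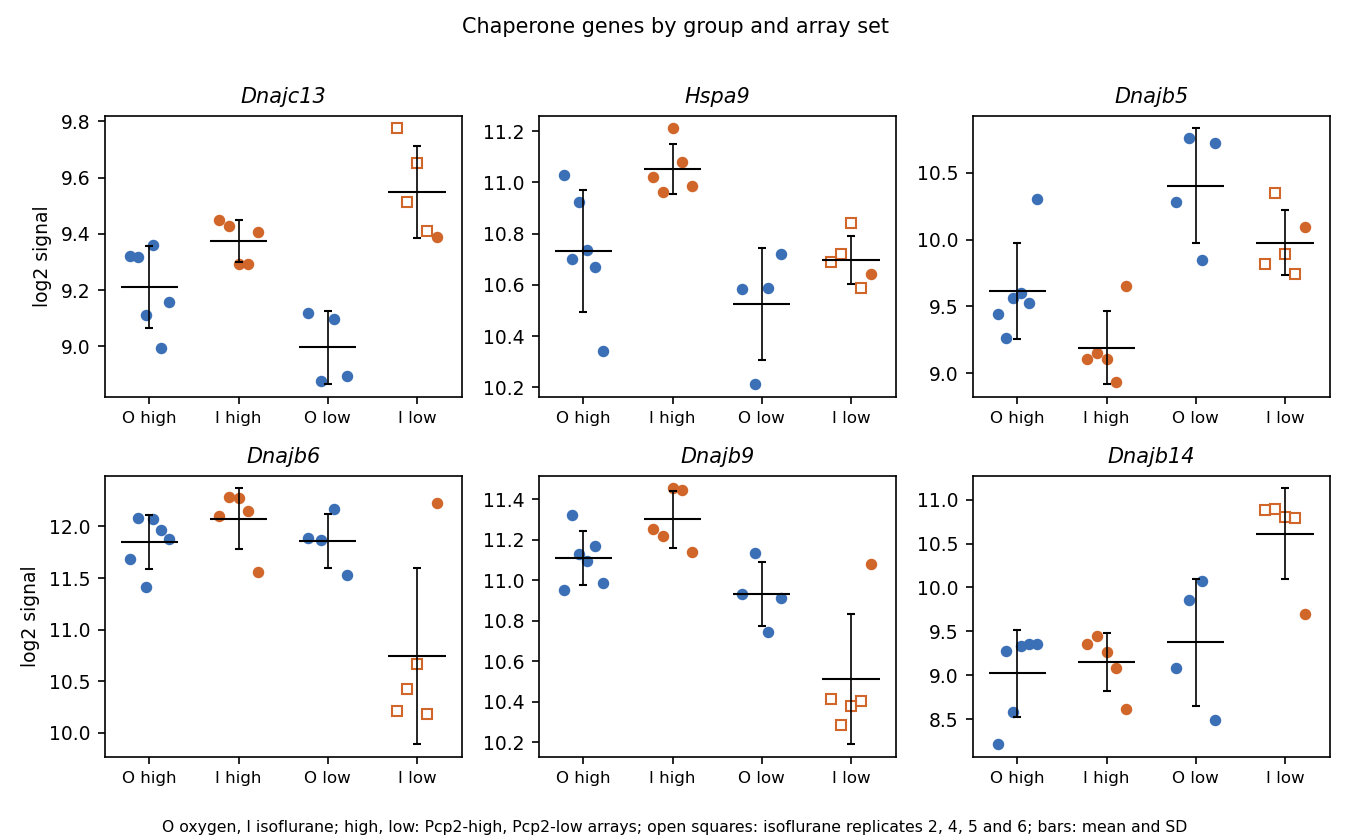
Log2 signal (vertical axis) of 6 J-domain and Hsp70 genes on each of the 20 arrays, by group and array set, with mean and SD. For Dnajb6, Dnajb9 and Dnajb14 isoflurane replicates 2, 4, 5 and 6 (open squares) lie away from isoflurane replicate 10 of the same set.

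Within the Pcp2-high arrays alone, 5 isoflurane against 6 oxygen, limma called 0 members and 0.0% of all probe sets, with a lowest adjusted p of 0.331 among the members. At an unadjusted p under 0.05 there were 11 members, or 18.3%, against 12.8% of all probe sets. Signs leaned one way: 52 of 60 members had a positive difference, against 49.5% of all probe sets, and the members' median was 0.14 against 0.00. The 7 TRiC genes were all positive, from 0.16 to 0.29, with a median of 0.22, and 5 of them had an unadjusted p under 0.05. These signs were shared by the 7 genes under quantile normalization (median 0.17) and median-centred arrays (0.26) too. Isoflurane replicate 9 differed from its group. On replicates 1, 3, 7 and 8, between 21 and 30 members were above the range of the Pcp2-high oxygen arrays, and on replicate 9 there were 8. Over all probe sets the shares above that range were 14.8% to 20.1% on the former 4 and 10.7% on replicate 9. The mean of the log2 beta-actin and Gapdh 3'/5' ratios was 0.63 to 0.75 on replicates 1, 3, 7 and 8. It was 0.99 on replicate 9, and 0.71 to 0.96 on the Pcp2-high oxygen arrays. The part of this ratio in these differences was not tested within the set. With replicate 9 left out, 2 of 60 members passed, Cct7 and Cct8, both higher. Of all 18625 probe sets 5.83% passed in either direction, 250 higher and 836 lower.

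Ranges of the groups were apart on Pcp2-high arrays for Cct6a and Dnaja1, both higher in isoflurane rats, against 0.408% of all probe sets higher. Cct6a, a TRiC subunit, had a lowest value of 11.36, a median of 11.62 and a highest of 11.74 in oxygen rats, and read 11.77, 11.80, 11.91, 11.95 and 11.98 in isoflurane rats. Dnaja1, a class A partner of Hsp70 whose triplet is printed above, had 11.11, 11.75 and 11.81, against 11.82, 11.83, 11.90, 11.92 and 11.97. Their limma adjusted p-values were 0.331 and 0.39. No member was lower with ranges apart, against 0.58% of all probe sets. On Pcp2-low arrays the ranges were apart for 3 members higher in isoflurane rats (Dnajc13, Dnajc21 and Hspa4l) and 3 lower (Dnaja1, Dnajc5 and Hspbp1), or 5% each, against 6.7% and 6.52% of all probe sets. Dnaja1 was thus apart in opposite directions, with 12.09 to 12.37 in oxygen rats and 11.80 to 12.08 in isoflurane rats of the Pcp2-low set.

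Within the Pcp2-low arrays, 5 isoflurane against 4 oxygen, 5 of 60 members passed, or 8.33%, against 18.6% of all probe sets (11.2% higher and 7.42% lower). At an unadjusted p under 0.05 there were 22 members, or 36.7%, against 35.0%. Dnajc13 rose by 0.55 ± 0.12 (limma adjusted p = 0.0131) and Dnajb14, a J-domain protein of the endoplasmic reticulum membrane, by 1.24 ± 0.33 (0.0272). Cct4 fell by 0.62 on the log2 scale (adjusted p = 0.0210), Cct3 by 0.46 (0.0241) and Hspbp1 by 0.40 (0.0307). Of the 7 TRiC genes 6 had a negative difference, with a median of -0.20. The members' median was -0.09 against 0.00 for all probe sets. On these arrays the summed cortical projection neuron signal was 3966 to 4546 in oxygen rats and 2772 to 3307 in isoflurane rats. Its genes did not move alike. The mean log2 signal of Neurod6, the brightest, went from 10.88 to 10.11, and Tbr1, Rasgrf2 and Emx1 were also lower in isoflurane rats. Cux2 was near level (9.24 and 9.22) and Fezf2 was higher (8.98 and 9.24). The summed signal of 4 thalamic genes was 1375 to 1774 in oxygen rats and 1035 to 3331 in isoflurane rats. Of these, Tcf7l2, Lef1 and Prkcd had higher means in isoflurane rats and Calb2 a lower one. That of 5 choroid plexus genes was 984 to 13556 in oxygen rats and 504 to 1154 in isoflurane rats. The part of tissue make-up in these results was not tested. Centring arrays on their medians moved the median of all probe sets by -0.21 here, and 21 members then passed, 1 higher and 20 lower, against 2 higher and 3 lower. Under that centring the split over all probe sets was 1467 higher and 3776 lower, against 2087 and 1382.

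For 3 of the 5 genes called, Cct3, Cct4 and Dnajb14, the 4 arrays that stood apart lay outside the oxygen range and isoflurane replicate 10 within it. Cct4 read 11.49, 11.82, 11.88 and 12.00 in oxygen rats, 10.97, 11.01, 11.12 and 11.14 on isoflurane replicates 2, 4, 5 and 6, and 11.68 on isoflurane replicate 10. Cct3 read 11.31, 11.44, 11.47 and 11.64, then 10.76, 10.96, 10.99 and 10.99, and 11.34 on replicate 10. For both subunits replicate 10 lay within the oxygen range and the 4 arrays below it. Dnajb14 went the other way, with 8.50, 9.08, 9.85 and 10.07 in oxygen rats, 10.80 to 10.89 on the 4 arrays and 9.70 on replicate 10. For Hspbp1 and Dnajc13, in contrast, replicate 10 lay on the side of the 4 arrays, at 9.96 below the oxygen range of 10.11 to 10.59 for Hspbp1 and at 9.39 above that of 8.88 to 9.12 for Dnajc13. Outside the oxygen range of their set were 41, 37, 35 and 37 members on replicates 2, 4, 5 and 6, and 15 on replicate 10, against 57.9% to 60.6% and 41.2% of all probe sets. With the 4 arrays left out, replicate 10 stood alone for isoflurane, so only differences are given. They were -0.12 for Cct4, -0.13 for Cct3, 0.32 for Dnajb14, -0.35 for Hspbp1 and 0.39 for Dnajc13. Leaving out replicate 10 in place of the 4 arrays gave 23 members, against 33.6% of all probe sets. Leaving out any 1 of replicates 2, 4, 5 and 6 gave 1, oxygen replicate 4 gave 2, and oxygen replicate 2 or 3 gave 3. Over all probe sets these fits called 952 to 1206 higher and 650 to 809 lower, against 2087 and 1382 with every array.

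The difference between the 2 sets' isoflurane differences was tested with an interaction term. Of 60 members 6 passed, or 10%, all of them lower in the Pcp2-low set. Over all probe sets 10.2% passed, 7.61% higher and 2.58% lower. At an unadjusted p under 0.05 there were 24 members, or 40%, against 27.5%. The 6 past the adjusted threshold were Cct3 (-0.64, limma adjusted p = 0.00711), Cct4 (-0.78, 0.0139), Dnaja4 (-0.51, 0.0241), Dnajb9 (-0.61, 0.0334), Dnajb6 (-1.34, 0.0358) and Dnaja1 (-0.51, 0.0401). The 7 TRiC genes all had a negative interaction, with a median of -0.42, and the 4 class A genes too, with a median of -0.47. Under quantile normalization 3 members passed and under median-centred arrays 27, all lower, while the all-probe-set split went from 1417 higher and 480 lower to 1109 and 634 and to 1059 and 2840. Median centring moved the median interaction of all probe sets by -0.25. Without the 4 isoflurane arrays limma called 0 members and 0.0698% of all probe sets, with a lowest adjusted p of 1.00 among the members and 1 member at an unadjusted p under 0.05.

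**Figure D3:**
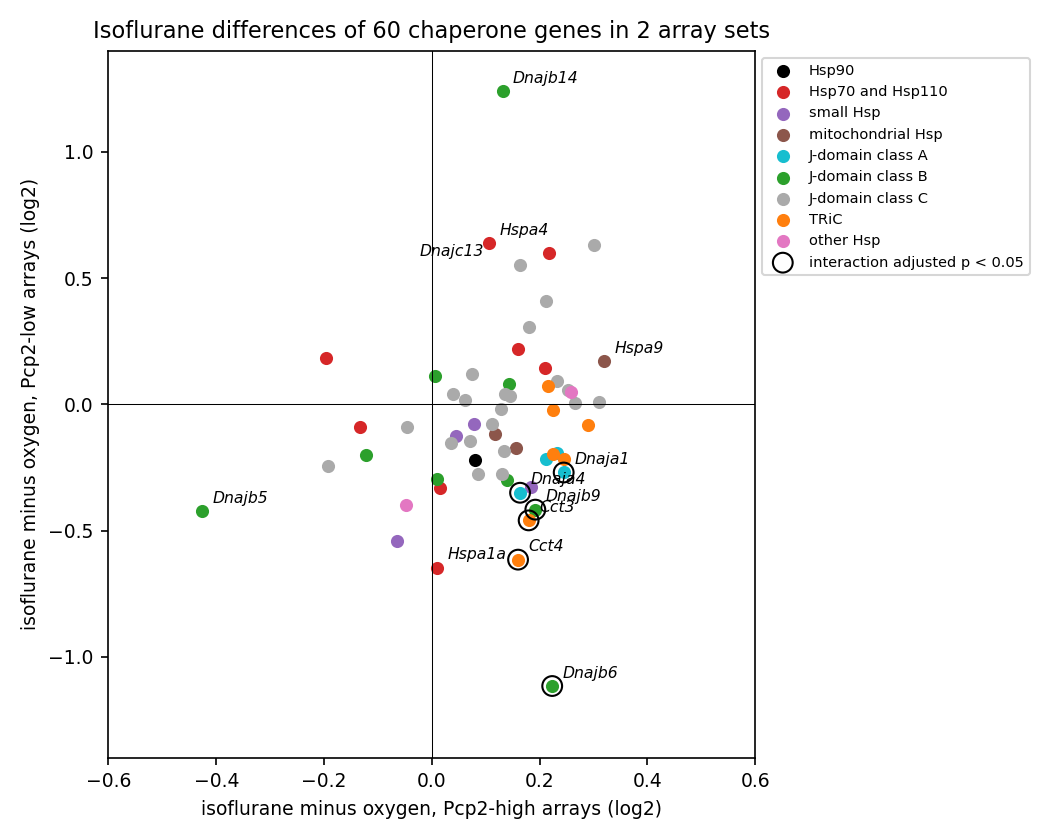
Isoflurane minus oxygen (log2) of 60 chaperone genes in the Pcp2-high arrays (horizontal axis) and the Pcp2-low arrays (vertical axis), coloured by role, on axes of different scale. Circled genes passed the interaction test, and each lies right of 0 and below 0.

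Dnajb6, a J-domain protein that holds back the aggregation of polyglutamine proteins, shows the widest gap. On Pcp2-low arrays it read 11.53, 11.86, 11.88 and 12.16 in oxygen rats, 12.22 on isoflurane replicate 10, and 10.19, 10.21, 10.43 and 10.67 on the 4 arrays apart. Other probe sets of Dnajb6 also name pseudogenes and were not used. Dnajb9, a J-domain protein that helps to clear misfolded proteins from the endoplasmic reticulum, read 10.75, 10.91, 10.93 and 11.13, then 11.08, and 10.29, 10.38, 10.40 and 10.42. Dnaja4, of class A, read 11.13, 11.17, 11.22 and 11.34, then 11.27, and 10.64, 10.80, 10.81 and 10.81. In each of the 3 genes the 4 arrays were below every oxygen array of the set, and replicate 10 was within or above the oxygen range. Replicate 10 also had more Pcp2 signal than those oxygen arrays, and the part of this was not tested.

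**Figure D4:**
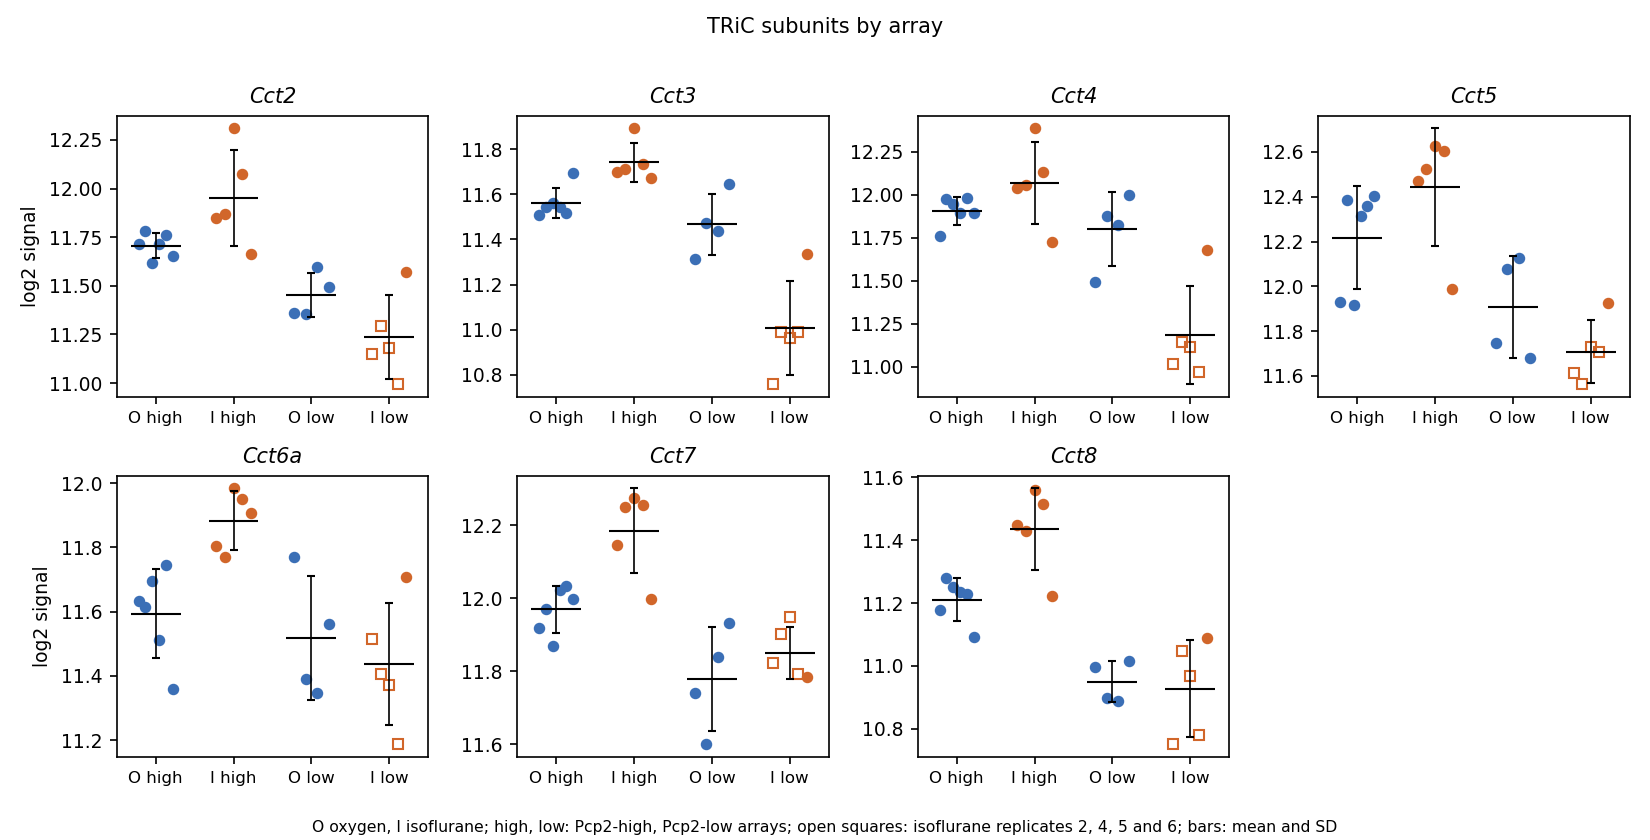
Log2 signal (vertical axis) of the 7 measured TRiC subunits on each of the 20 arrays, by group and array set, with mean and SD. In isoflurane rats every Pcp2-high array is above every Pcp2-low array for each of the 7 subunits, and open squares mark isoflurane replicates 2, 4, 5 and 6.

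In isoflurane rats the ranges of the 2 sets were apart for all 7 TRiC subunits, higher on Pcp2-high arrays, with a median difference of 0.72. In oxygen rats they were apart for Cct2 and Cct8, and the median difference was 0.19. Cct8 read 10.89, 10.90, 11.00 and 11.02 on Pcp2-low oxygen arrays and had a lowest value of 11.09, a median of 11.23 and a highest of 11.28 on the Pcp2-high ones.

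Other folding genes that the rule does not take in were read beside the members. Of 41 such genes 39 had a probe set annotated to 1 gene and 38 passed the filter. In the blocked fit 4 of the 38 passed (10.5%, against 7.37% of all probe sets), 2 in each direction, and their median was 0.03 against 0.00. Grpel2, an exchange factor of mitochondrial Hsp70, ran from 6.79 to 7.34 with a median of 7.01 in oxygen rats and from 7.29 to 8.17 with a median of 7.70 in isoflurane rats, a difference of 0.62 (limma adjusted p = 0.00797). Ppid, the Hsp90 partner cyclophilin 40, differed by 0.23 (0.0291). Serpinh1, a collagen chaperone, fell by 0.50 (0.0226), and Bag6, which holds proteins of the membrane insertion path, fell by 0.36 (0.0262), each on the log2 scale. Without the 4 arrays none of the 38 passed, and the differences were 0.46, 0.17, -0.40 and -0.27.

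The interaction test was passed by 6 of the 38 (15.8%), lower in the Pcp2-low set in each case, against 2.58% of all probe sets lower, namely Fkbp4, Stip1, Cdc37, Tcp1, Pfdn6 and Grpel1. Fkbp4, Stip1 and Cdc37 are Hsp90 co-chaperones, and Tcp1 is the TRiC subunit that the rule on symbols leaves out. Without the 4 arrays, replicate 10 was the only isoflurane array left in the Pcp2-low set. The interactions were then -0.07 for Fkbp4, -0.08 for Stip1, -0.45 for Cdc37, -0.14 for Tcp1, -0.39 for Pfdn6 and -0.48 for Grpel1. Tcp1 read 11.92, 11.96, 12.01 and 12.07 on Pcp2-low oxygen arrays, 12.01 on isoflurane replicate 10, and 11.21, 11.27, 11.54 and 11.63 on the 4 arrays apart. The 4 arrays thus lay below every other Pcp2-low array for Tcp1, as they did for Cct3 and Cct4.

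Across the 11 Pcp2-high arrays, Hspa1a was set against 5 other heat-inducible genes. Its highest signal, 8.46, was on oxygen replicate 10, and both groups were mixed along its range. Bag3, a co-chaperone of Hsp70 that HSF1 induces, followed it most closely, with Pearson r = 0.846 (permutation p = 0.00101, adjusted 0.00505 over the 5 relations) and Spearman rho = 0.782 (permutation p = 0.00615, adjusted 0.0307). Without the 2 arrays farthest from the median of Hspa1a, r was 0.861. Dnajb1 had r = 0.734 (permutation p = 0.00997, adjusted 0.0249) and rho = 0.600 (permutation p = 0.0563, adjusted 0.121), but r fell to 0.325 without the 2 arrays, so that relation rests on them. Hsph1 had r = 0.660 (permutation p = 0.0279, adjusted 0.0465) and rho = 0.573 (permutation p = 0.0725, adjusted 0.121), with r = 0.467 without them. For Hspb1 r was 0.195 and rho -0.03, with permutation p-values of 0.562 and 0.946, and for Hspe1 r was -0.32 and rho -0.23, with 0.337 and 0.504. Hspa1a was highest on oxygen replicate 10, isoflurane replicate 9 and oxygen replicate 5 (8.46, 8.22 and 8.18). On these arrays the mean log2 3'/5' ratio (beta-actin and Gapdh) was 0.93, 0.99 and 0.96. On the other Pcp2-high arrays it was 0.63 to 0.88. The part of this ratio in the correlations was not tested.

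**Figure D5:**
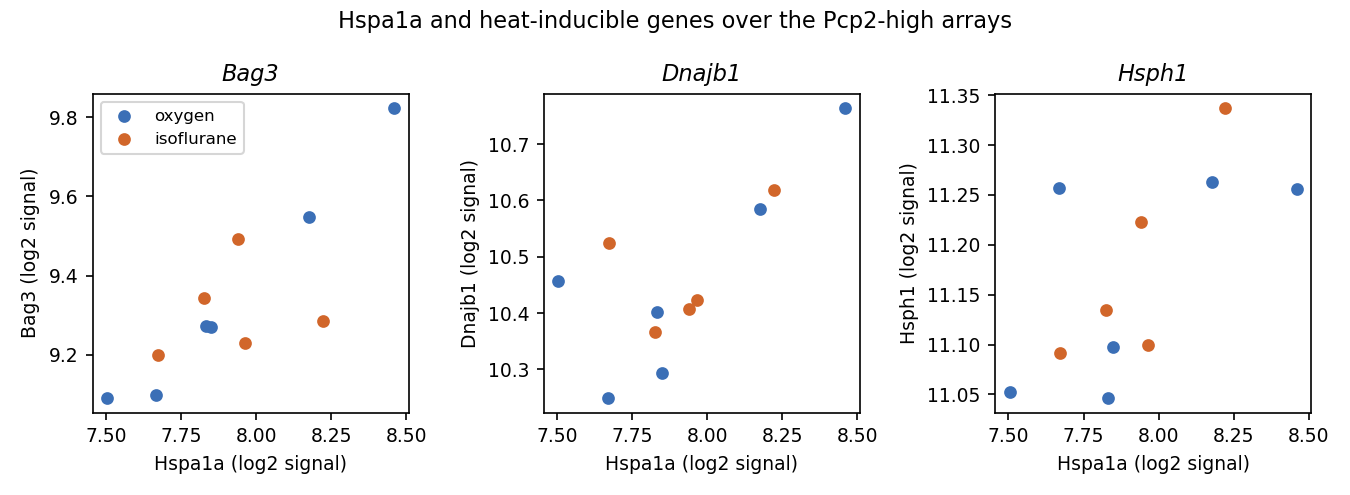
Log2 signal of Bag3, Dnajb1 and Hsph1 (vertical axes) against that of Hspa1a (horizontal axis) on the 11 Pcp2-high arrays, 6 oxygen and 5 isoflurane. The array at the right end is oxygen replicate 10, at 8.46 for Hspa1a.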

How the data were processed

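Total RNA of 20 rats was hybridised to 1-colour Affymetrix rat arrays. The deposited values are intensities on a linear scale. The submitters' processing notes name MAS5 and Affymetrix Expression Console, with versions and settings not given in the sources used here. Trimmed means of 500.123 to 500.159 on every array show scaling to a common level, so changes are relative to an array's average transcript. A floor of 1 replaced 2015 lower values before the log2 transform. Of 31042 probe sets that are not controls, 18625 with a mean log2 signal above 6.62 were tested with limma 3.58.1 in R 4.3.3 (linear models, moderated by eBayes along the trend of variance with intensity, two-sided tests, Benjamini-Hochberg adjustment over all probe sets tested, threshold 0.05). Group and replicate number came from the sample titles. The main fit had group and array set over the 20 arrays, and further fits were made within each set and with the interaction, the isoflurane difference in Pcp2-low minus that in Pcp2-high arrays. Correlations were tested with 100000 permutations in Python 3.11.15 (scipy 1.17.1, numpy 2.4.6, pandas 2.3.3), and figures drawn with matplotlib 3.10.9. Array medians ran from 7.20 to 7.57 (log2) and no pair of arrays held identical values (highest r 0.982). The number of arrays limits the precision, and detection calls were not used here.

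In the platform annotation 20826 probe sets carry 1 gene, 436 carry more than 1 and 9780 carry no gene, and 20758 of the gene IDs matched the RefSeq table of GRCr8, which changed 0 symbols. The members, the other gene lists, the array sets and the tests were chosen with earlier results of these data known. Genes named were the markers Hspa1a and Hspa8, inducible genes, members past the threshold, the member of lowest p in each role, the 6 largest differences between sets in each direction, the 3 lowest interaction p-values and other folding genes past the threshold. Genes called within a set or named beyond this, among them Dnajc6, Dnajc27, Dnajc3, Dnajc5, Hspa4l, Cct2, Cct6a, Cct8, Dnaja1, Dnajb6, Dnajb9, Dnajb13, Dnajb14, Fkbp4 and Tcp1, were chosen after their values were seen. The fits were tested on simulated data. Alternatives left out the array-set term, weighted arrays, or added the replicate number or the mean log2 3'/5' ratio (beta-actin and Gapdh) to the model. Others used quantile normalization, median-centred arrays, a pseudocount of 16 or 64, other eBayes settings, no filter or the 60th percentile as the filter, or averaged a gene's probe sets. Arrays were left out singly, and isoflurane replicates 2, 4, 5 and 6 together. For the Pcp2-low fit without these 4, and for the interaction with other eBayes settings, the alternative was chosen after seeing the data.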

Additional observations from a re-analysis of the deposited data

Results flagged for a closer look

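A single array lay far from the rest of its group and array set in 13 of 116 checks, and chance flags about 1 in 20. Oxygen replicate 10 accounts for 4 of the 13, as the highest of the Pcp2-high oxygen arrays, with a log2 signal of 11.00 for Dnaja4, 10.31 for Dnajb5, 10.36 for Dnajc15 and 11.69 for Cct3. This is also the array with the highest Hspa1a signal. Isoflurane replicate 10 was highest among Pcp2-low isoflurane arrays for Dnaja4 (11.27) and Cct4 (11.68), as the lone array of that set outside the 4 that stood apart. Isoflurane replicate 9 was lowest for Hspe1 (12.06), replicate 1 for Dnajc17 (7.13), and replicate 4 for Hspa2 (8.01), while replicate 7 was highest for Cct3 (11.89). Oxygen replicate 3 was lowest for Dnajc21 (7.51) and Dnajc9 (9.80), and oxygen replicate 2 highest for Grpel2 (7.34).

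The isoflurane difference was lower in Pcp2-low than in Pcp2-high arrays by limma's interaction test for 12 genes. Members were Cct3 (-0.64), Cct4 (-0.78), Dnaja1 (-0.51), Dnaja4 (-0.51), Dnajb6 (-1.34) and Dnajb9 (-0.61), and other folding genes Cdc37 (-0.64), Fkbp4 (-1.09), Grpel1 (-0.44), Pfdn6 (-0.52), Stip1 (-0.67) and Tcp1 (-0.62). Leaving out the 4 isoflurane arrays that stood apart leaves isoflurane replicate 10 alone in the Pcp2-low isoflurane group. The interactions of the 6 members then ran from -0.41 (Dnaja1) to 0.14 (Dnajb6).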

How the results depend on the processing

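The count of members called in the blocked fit, 1, became 0 with no array-set term or without the 4 isoflurane arrays, 2 with the mean of a gene's probe sets, 3 each with quantile normalization, median-centred arrays, the 3'/5' covariate or the 60th percentile filter, and 7 with array weights. Over all probe sets the main fit called 480 higher and 892 lower, and array weights 617 and 1258. The counts were 490 and 922 with quantile normalization, 304 and 1175 with median-centred arrays, and 580 and 1132 with the 3'/5' covariate. They were 439 and 957 of 12417 with the 60th percentile filter and 394 and 805 of 14932 with the mean of probe sets. With no array-set term they were 15 and 59. Same-numbered arrays deviated together (r above 0.1) in 2 of 10 pairs, and 0 of 10 correlated best with their own number. No pairing by number was thus seen, though this check cannot exclude one. With the replicate block 0 members and 0 other folding genes were called, against 3 higher and 26 lower over all probe sets. Within Pcp2-low arrays the count of 5 became 21 with median-centred arrays. The interaction count of 6 became 3 with quantile normalization and 27 with median-centred arrays. The count of 4 other folding genes became 1 with no array-set term and 0 without the 4 isoflurane arrays. Leaving out each array in turn gave 1 to 9 members in the blocked fit (2 without oxygen replicate 3 or 6, 3 without oxygen 5, 5 without isoflurane 10, 9 without isoflurane 9, against 15.8% of all probe sets), 0 to 2 within Pcp2-high arrays, 1 to 23 within Pcp2-low arrays, 2 to 16 in the interaction (2 without isoflurane 6, 3 without oxygen 2 or 3 or isoflurane 2, 4, 7 or 8, 16 without isoflurane 10) and 1 to 6 other folding genes (1 without oxygen 4). The cause of these shifts was not tested. The correlation of Hspa1a with Hsph1 was 0.621 under quantile normalization and no longer passed.

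Signs that turned belonged to members that had not passed the blocked test. With no array-set term they were Hspb8 (0.038), Hspa2 (0.061), Dnajc12 (-0.13) and Dnajc17 (-0.0023). Quantile normalization turned Hspb1 (-0.013) and Dnajc17 (-0.054). Median centring turned Hspb1 (-0.067), Hspe1 (-0.066), Hspd1 (-0.063), Dnajc12 (-0.012) and Dnajc17 (-0.035). Hspb1 also turned with a pseudocount of 64 (-0.0038) and the 3'/5' covariate (-0.016). Array weights turned Dnaja4 (0.028), Hspb8 (0.12) and Dnajc15 (0.044), and the mean of probe sets turned Hsp90ab1 (0.18) and Hspb8 (0.053). Without the 4 isoflurane arrays the turned values were Hsp90ab1 0.060, Hsph1 0.022, Hspb1 -0.011, Dnaja4 0.14, Hspb8 0.12, Dnajc15 0.083, Cct3 0.11 and Cct4 0.096. With single arrays left out, values ran from -0.18 to 0.12 for Hspa2, from -0.075 to 0.11 for Hspb1, from -0.10 to 0.0021 for Hspb8, from -0.0050 to 0.032 for Hspd1 and from -0.023 to 0.048 for Hspe1. Dnajc13 passed in each of the 20 such fits.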

Other observations

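Several members that the fits did not call have levels worth recording. Hspa13, an Hsp70 of the secretory pathway, read 9.03, 9.34, 9.48 and 9.68 on Pcp2-low oxygen arrays, 9.22 on isoflurane replicate 10, and 9.98 to 10.31 on isoflurane replicates 2, 4, 5 and 6. Hspa4, an Hsp110 relative, read 9.49 to 10.32, then 9.90, and 10.63 to 10.77. Both were thus higher on those 4 arrays than on every other Pcp2-low array, in the direction opposite to Cct3, Cct4 and Dnajb6. Dnajc5, the cysteine string protein of synaptic vesicles, ran from 11.81 to 12.14 over the 20 arrays, a narrow span, yet on Pcp2-low arrays its groups were apart, with 12.01 to 12.09 in oxygen rats and 11.81 to 12.00 in isoflurane rats. A dimmer probe set of Dnajc5 differed by -0.30 in the blocked fit (limma adjusted p = 0.184).

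Where a member had several tested probe sets, the probe sets were compared in the blocked fit. Of 20 such members, the sign of the isoflurane difference differed between probe sets in 6, namely Cct5, Cct6a, Dnajc5, Hsp90ab1, Hspa2 and Hspb8. For Cct6a the probe set used differed by 0.12 and a dimmer one by -1.37 (limma adjusted p = 0.337 and 0.203).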
